A study of Homo sapiens with 8 samples.

Results

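The genes described here are the ERBB receptors EGFR, ERBB2 and ERBB3, the adaptors GRB7 and GRB2, the EGFR ligands AREG, EREG, HBEGF and TGFA, and the receptor inhibitor ERRFI1. They were chosen by symbol with earlier results of these data known, so counts of them set beside all genes are descriptions. All 10 were found by Ensembl identifier among the 60483 genes of the deposited count table. The RNA sequenced was that of SW1990, a cell line of pancreatic ductal adenocarcinoma, in a control group and in a group labelled PAF1 CRISPR KD, and the titles place both in the side population, the cells that export a DNA-binding dye. Each group held 2 libraries sequenced on 2 lanes, and the lanes were summed. In each group the column name of 1 library began with SP and that of the other did not, so libraries are called SP-prefixed or unprefixed, and a pair is the control and the labelled-KD library with the same kind of name. The titles call every library side population, but whether the unprefixed ones are could not be settled from the column names. A pair or prefix difference thus may or may not compare side population cells with others. Both SP-prefixed names also hold P3, which the labels do not explain, and neither unprefixed name does. Whatever P3 stands for cannot be told apart from the prefix. Where a group's levels are given as 2 values, the unprefixed library comes first. The word CRISPR is absent from the unprefixed control's column name alone, the guide is not named, and nothing in the labels says whether the cells are a clone or came from separate cultures. The p-values below thus rest on the spread from library to library, possibly a technical one, which the fits in part pool over genes.

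ERBB receptors are tyrosine kinases of the plasma membrane that pair after a ligand binds and then signal through RAS and ERK and through PI3K and AKT. EGFR binds AREG, EREG, HBEGF and TGFA, ERBB2 has no known ligand of its own and serves as a partner, and ERBB3 binds neuregulins and has little kinase activity. ERBB2 and GRB7 lie side by side on chromosome 17 and are often amplified together in breast cancer.

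The libraries held 17234973 to 22348416 counts. PAF1, the targeted gene, stood at 55.2 CPM (a count scaled for depth, here with TMM factors) in the unprefixed control and 43.9 CPM in the SP-prefixed control, against 41.7 and 44.4 CPM in the unprefixed and SP-prefixed libraries labelled KD. The SP-prefixed library labelled KD was thus not below its control, and the groups are named here by their labels. The ductal and epithelial markers EPCAM, KRT7, KRT8, KRT18, KRT19 and CDH1 were all abundant and summed to 5534 to 6694 CPM in the controls and 5459 to 5773 CPM in the libraries labelled KD. The summed level was at most 1.45 CPM for 3 acinar, 0.897 CPM for 4 leukocyte and 0.353 CPM for 3 endocrine markers, 23.7 to 29.8 CPM for 3 endothelial markers (mostly CDH5) and 33.5 to 41.7 CPM for 4 fibroblast markers (mostly COL1A1, with DCN at 0). The SP-prefixed control was the highest of the 4 libraries for 31.1% of the 16417 genes tested and for 7 of the 10 described here. It was at least 2-fold above each other library for 1.18% of genes tested and for 3 of the 10, namely GRB7, HBEGF and ERRFI1. The shares of all genes were not computed for the other libraries.

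All 10 genes passed the expression filter, which asked for about 10 counts in at least 2 libraries, of either group. In the edgeR quasi-likelihood fit with the group alone, 0 of the 10 passed a Benjamini-Hochberg adjusted p of 0.05, as did 0% of all genes tested. At an unadjusted p under 0.05 edgeR gave 2 of the 10, GRB7 and ERBB3, against 11.2% of all genes (7.21% lower and 4.03% higher), and both were lower. DESeq2 passed the same 2 genes again both lower, against 1.44% of all genes (1.05% lower and 0.39% higher). Limma-voom passed 0 of the 10 and 0 of all genes tested. With the prefix of the column name as an added term, which removes the mean difference between the pairs, edgeR passed GRB7 and ERBB3. Both were lower in the libraries labelled KD, and 1.85% of all genes were called (1.34% lower and 0.512% higher). That fit left 1 residual degree of freedom per gene. Its SE and p thus drew largely on spread pooled over genes, less on how far a gene's own pairs differed. Both libraries labelled KD lay below both controls for 3 of the 10 (ERBB2, ERBB3, GRB7), against 22.6% of all genes, and above both for 1 (TGFA), against 22.1%, or 4 of the 10 in all against 44.7%. The median log2 fold change was -0.59 over the 10 genes and -0.01 over all genes tested. In the unprefixed pair the median of the 10 was 0.14 and in the SP-prefixed pair -1.05. In bulk RNA, fewer cells that express a gene and less of its RNA per cell cannot be told apart.

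**Figure D1:**
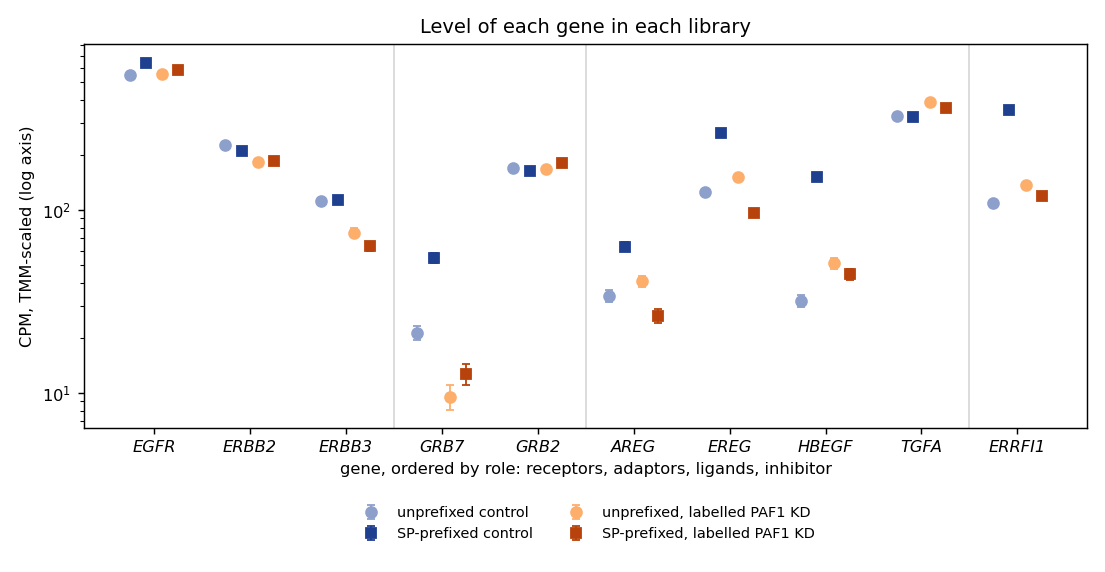
CPM on a log axis for each of the 10 genes in each of the 4 libraries (points, with 95% Poisson counting intervals), ordered by role. GRB7 and ERBB3 are lower in both libraries labelled KD than in both controls, while the SP-prefixed control is the highest library for all of AREG, EREG, HBEGF and ERRFI1, with 353 CPM of ERRFI1 against at most 137 CPM elsewhere.

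GRB7 had the largest fold change of the 10. It encodes an SH2-domain adaptor that binds phosphorylated ERBB2 and other receptor tyrosine kinases (ENSG00000141738, chromosome 17, 39737927 to 39747291, plus strand, GRCh38). The unprefixed control gave 21.4 CPM (95% Poisson interval 19.5 to 23.4) and the SP-prefixed control 54.6 CPM (interval 51.4 to 57.9). The unprefixed library labelled KD gave 9.44 CPM (interval 8.04 to 11.0) and its SP-prefixed counterpart 12.6 CPM (interval 11.1 to 14.4). Both libraries labelled KD were below both controls, and the controls differed from each other 2.55-fold. By pair, the log2 fold change came to -1.17 (unprefixed) and -2.10 (SP-prefixed). With the group alone it was -1.78 ± 0.42 (SE, n = 2 per group; edgeR, adjusted p = 0.23), and with the prefix term GRB7 fell by 1.66 ± 0.23 (adjusted p = 0.0115 in edgeR). The difference between SP-prefixed and unprefixed libraries in that fit was 0.93 ± 0.22 (edgeR, adjusted p = 0.151), and 0.183% of genes tested passed for that difference. Without the SP-prefixed control the log2 fold change was -0.95 (edgeR, adjusted p = 0.0443), and without the unprefixed control it was -2.29 (edgeR, adjusted p = 0.000124). Each of these fits sets 1 control library against 2 labelled KD, so its p rests on the spread of the latter alone, and the lone control is assumed to vary like them.

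ERBB2 begins the same stretch of chromosome 17 (ENSG00000141736, 39687914 to 39730426, plus strand, GRCh38), and 7500 bases separate its end from the start of GRB7. It encodes the ligandless receptor of the family. ERBB2 stood at 227 and 212 CPM in control and at 184 and 185 CPM in labelled-KD libraries. The groups did not overlap, but the difference was small beside that of GRB7, at -0.25 ± 0.12 on the log2 scale (SE, 2 libraries in each group; edgeR, adjusted p = 0.489; with the prefix term, 0.414). Part of ERBB2 overlaps PGAP3 and MIEN1 on the opposite strand. No source used here gives the strand setting, so reads within the shared stretches cannot be told apart. No other gene of the table overlaps GRB7.

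Per length, there was far less GRB7 than ERBB2 mRNA in 3 of the 4 libraries. The per-length level of GRB7 was 0.270 times that of ERBB2 in the unprefixed control and 0.739 times in the SP-prefixed control, and 0.147 and 0.197 times in the unprefixed and SP-prefixed libraries labelled KD. As a share of the counts of both genes, GRB7 made up 8.61% (exact binomial 95% interval 7.89 to 9.37) and 20.5% (19.4 to 21.6) in these controls. It made up 4.87% (4.17 to 5.66) and 6.41% (5.65 to 7.24) in the libraries labelled KD. The intervals of the 2 groups did not overlap. These intervals, like the Poisson intervals, cover counting error only. The difference in the log2 ratio, labelled KD minus control, was -1.39 (-2.56 ± 0.30 against -1.16 ± 1.03, SD, n = 2 per group; exact two-sided permutation test, p = 0.333, the smallest p that 2 against 2 libraries can give). It differed by -0.88 in the unprefixed pair and by -1.91 in the SP-prefixed pair, so GRB7 was lower relative to ERBB2 in each pair.

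The other genes around GRB7 had mixed directions. Of 44 genes of the table within 500000 bases of it, 22 passed the filter, and the 21 besides GRB7 had a median log2 fold change of -0.09, from -1.07 to 0.72. Both libraries labelled KD lay below both controls for 8 of the 21, against 22.6% of all genes tested, and above both for 5, against 22.1%. With the prefix term 2 of the 21 fell, RAPGEFL1 and PGAP3, where 1.34% of all genes were called lower. RAPGEFL1, which resembles guanine nucleotide exchange factors, stood at 68.7 and 64.3 CPM in control and at 33.9 and 29.7 CPM in labelled-KD libraries. Its log2 fold change was -1.07 ± 0.14 with the group alone (SE, n = 2 per group; edgeR, adjusted p = 0.178) and with the prefix term it fell by 1.07 ± 0.15 (adjusted p = 0.0115 in edgeR). PGAP3, which remodels the lipid of GPI anchors and overlaps the start of ERBB2, had 26.2 and 17.9 CPM against 16.5 and 8.59 CPM, and in the prefix-term fit it fell by 0.86 ± 0.18 (adjusted p = 0.0472 in edgeR). GSDMB, a gasdermin, had 11.7 and 10.8 CPM against 7.53 and 4.64 CPM and did not pass in that fit (adjusted p = 0.0751 in edgeR). MIEN1, which overlaps the end of ERBB2, and STARD3, on the far side of ERBB2 from GRB7, had log2 fold changes of -0.17 ± 0.14 and -0.03 ± 0.13.

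**Figure D2:**
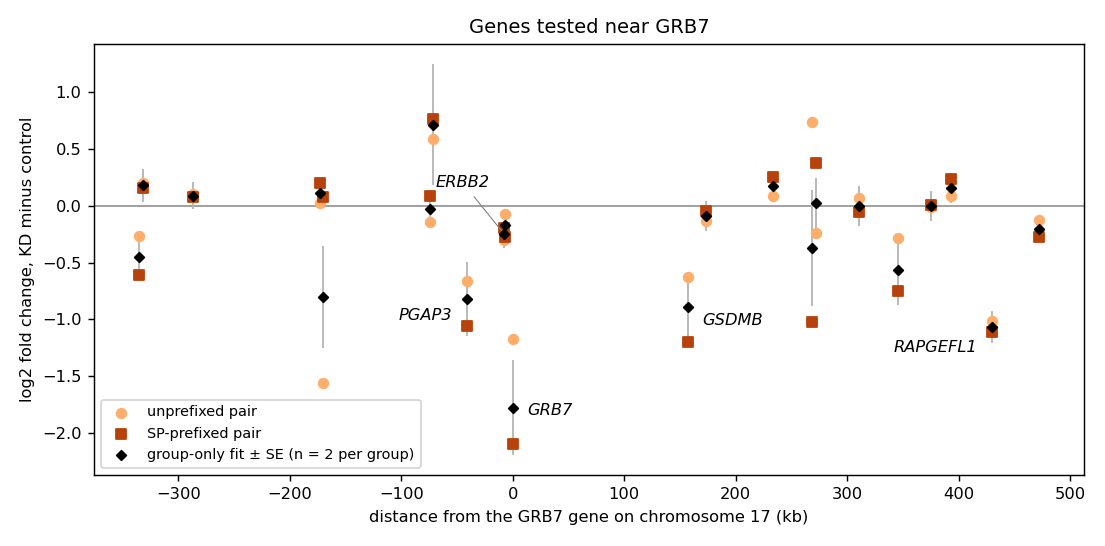
Log2 fold change (labelled KD minus control) of the 22 genes tested within 500000 bases of GRB7, against the distance from GRB7 in kb. Circles and squares are the unprefixed and SP-prefixed pair, and diamonds the fit with the group alone, with SE (n = 2 per group). The diamonds of GRB7 at -1.78 and RAPGEFL1 at -1.07 lie lowest, while ERBB2, next to GRB7, lies at -0.25.

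Of the receptors, ERBB3 was the one that separated the groups most clearly. It encodes the neuregulin receptor that recruits PI3K (ENSG00000065361, chromosome 12, 56079857 to 56103505, plus strand, GRCh38). ERBB3 stood at 113 and 114 CPM in control and at 75.4 and 63.4 CPM in labelled-KD libraries. The controls lay within 1.01-fold of each other, and both libraries labelled KD were below them. By pair the log2 fold change was -0.58 (unprefixed) and -0.85 (SP-prefixed). With the group alone it was -0.71 ± 0.14 (SE, n = 2 per group; edgeR, adjusted p = 0.193), and with the prefix term ERBB3 fell by 0.71 ± 0.14 (edgeR, adjusted p = 0.0424). That call sat close to the threshold, since with RLE scaling the adjusted p was 0.0514 and with a filter of 1 CPM in 2 libraries 0.053.

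EGFR (ENSG00000146648, chromosome 7, 55019021 to 55256620, plus strand, GRCh38), the receptor of the 4 ligands, was the most abundant of the 3 receptors per length. It stood at 549.9 and 640.2 CPM in control and at 558 and 582 CPM in labelled-KD libraries, and the groups overlapped. The log2 fold change was -0.06 ± 0.14 (SE, n = 2 per group; edgeR, adjusted p = 0.898), or by pair 0.02 (unprefixed) and -0.14 (SP-prefixed). Per length, EGFR made up 54.8% and 59.4% of the summed level of the 3 receptors in the unprefixed and SP-prefixed controls and 61.9% and 64.0% in the libraries labelled KD. ERBB3 made up 16.8% and 15.9%, against 12.5% and 10.4%, and ERBB2 from 24.7% to 28.4% in all 4 libraries. The order EGFR, ERBB2, ERBB3 was the same in each of them.

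GRB2, the adaptor that links activated receptors to the RAS exchange factor SOS, showed no separation of the groups. It stood at 170.4 and 163 CPM in control and at 168 and 182 CPM in labelled-KD libraries, and its log2 fold change was 0.07 ± 0.12 (SE, 2 libraries in each group; edgeR, adjusted p = 0.868).

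The ligands AREG, EREG and HBEGF and the inhibitor ERRFI1 shared a different pattern, in which the SP-prefixed control was the highest library and the pairs moved in opposite directions. AREG (amphiregulin) stood at 33.8 and 63.1 CPM in control and at 40.7 and 26.4 CPM in labelled-KD libraries. EREG (epiregulin) stood at 125 and 265 CPM in control and at 151 and 96.6 CPM in labelled-KD libraries. HBEGF, a heparin-binding ligand that is released from a membrane precursor, stood at 32.0 and 151 CPM in control and at 51.1 and 44.6 CPM in labelled-KD libraries. For each of the 3 ligands the unprefixed library labelled KD lay between the controls, and both labelled-KD libraries lay below the SP-prefixed control. ERRFI1, a cytosolic protein that binds and inhibits the kinase domains of EGFR and ERBB2, stood at 109.7 and 353 CPM in control and at 137 and 120.0 CPM in labelled-KD libraries.

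The log2 fold changes of these 4 genes were positive in the unprefixed pair and negative in the SP-prefixed pair. They were 0.27 and -1.25 for AREG, 0.27 and -1.45 for EREG, 0.67 and -1.76 for HBEGF, and 0.32 and -1.56 for ERRFI1, and in both pairs of each gene the 95% counting intervals lay apart. EGFR had the same order of signs, with intervals that overlapped in the unprefixed pair and lay apart in the SP-prefixed pair. That makes 5 of the 10 genes with this order, against 19.2% of all genes tested. With 1 library per group and prefix there is no residual spread, so the difference between the pairs was not tested. With the group alone none of the 4 passed, with log2 fold changes of -0.53 ± 0.32 for AREG, -0.65 ± 0.36 for EREG, -0.94 ± 0.60 for HBEGF and -0.85 ± 0.46 for ERRFI1 (SE, n = 2 per group; edgeR, adjusted p = 0.573, 0.533, 0.593 and 0.533). The prefix term left adjusted p-values of 0.422 to 0.608. Without the SP-prefixed control, HBEGF and ERRFI1 had positive log2 fold changes of 0.58 and 0.23 (edgeR, adjusted p = 0.0996 and 0.526), and AREG and EREG stood at -0.01 and -0.02. Without the unprefixed control, when the SP-prefixed library is the lone control and the spread again comes from the labelled-KD libraries alone, the log2 fold changes were -0.90, -1.08, -1.65 and -1.45 in the order AREG, EREG, HBEGF, ERRFI1 (edgeR, adjusted p = 0.026, 0.0111, 0.000138 and 0.000321). These p-values do not include the difference between the controls.

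**Figure D3:**
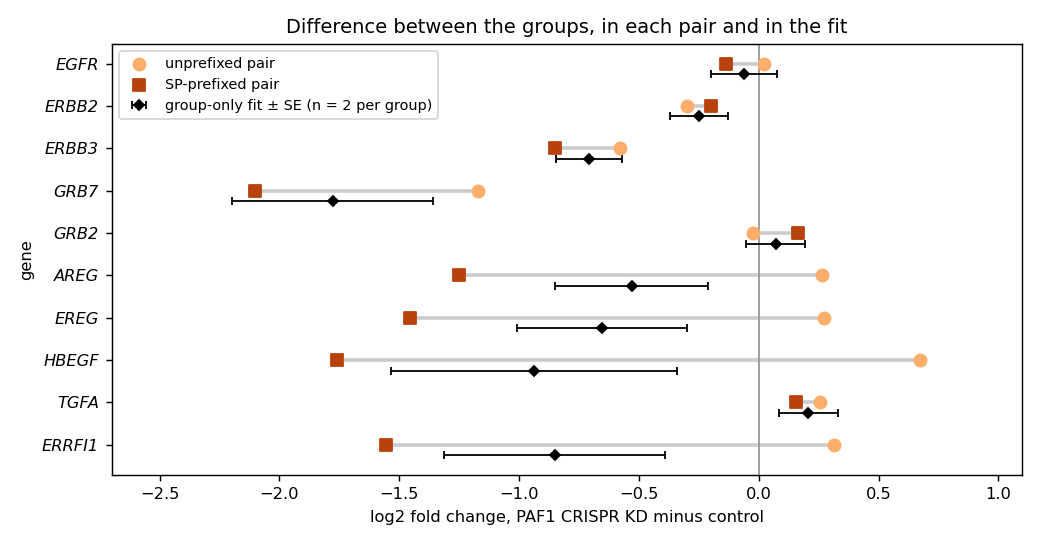
Log2 fold change (labelled KD minus control) of the 10 genes in the unprefixed pair (circles) and the SP-prefixed pair (squares), and in the fit with the group alone (diamonds, SE, n = 2 per group). ERBB2, ERBB3 and GRB7 lie left of 0 in both pairs, TGFA lies right of 0 in both, and AREG, EREG, HBEGF and ERRFI1 span 0, HBEGF from -1.76 to 0.67.

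Because AREG, EREG, HBEGF and ERRFI1 had this pattern in common, their promoters are shown, as the 250 bases before each RefSeq start site on GRCh38.p14. They are AREG at chr4:74444886-74445135 and EREG at chr4:74364895-74365144, both on the plus strand, and HBEGF at chr5:140346604-140346853 and ERRFI1 at chr1:8026310-8026559, both on the minus strand. Each is written 5′ to 3′ along its gene, and capitals mark every match to 7 motifs searched on both strands.
AREG: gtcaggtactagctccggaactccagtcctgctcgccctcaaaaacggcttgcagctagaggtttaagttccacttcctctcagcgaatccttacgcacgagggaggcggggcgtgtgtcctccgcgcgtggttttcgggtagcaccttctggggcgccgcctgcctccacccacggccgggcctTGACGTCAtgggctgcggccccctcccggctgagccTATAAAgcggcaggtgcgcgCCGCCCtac
EREG: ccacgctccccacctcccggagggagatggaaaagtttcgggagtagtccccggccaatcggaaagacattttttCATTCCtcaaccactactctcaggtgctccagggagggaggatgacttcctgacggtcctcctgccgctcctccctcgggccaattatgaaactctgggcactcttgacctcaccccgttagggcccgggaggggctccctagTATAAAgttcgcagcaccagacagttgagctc
HBEGF: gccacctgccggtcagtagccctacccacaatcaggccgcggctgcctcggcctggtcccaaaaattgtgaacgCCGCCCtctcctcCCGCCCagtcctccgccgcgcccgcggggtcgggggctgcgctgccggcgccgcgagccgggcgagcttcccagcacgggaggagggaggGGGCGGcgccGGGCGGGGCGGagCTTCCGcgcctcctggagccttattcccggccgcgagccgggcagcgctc
ERRFI1: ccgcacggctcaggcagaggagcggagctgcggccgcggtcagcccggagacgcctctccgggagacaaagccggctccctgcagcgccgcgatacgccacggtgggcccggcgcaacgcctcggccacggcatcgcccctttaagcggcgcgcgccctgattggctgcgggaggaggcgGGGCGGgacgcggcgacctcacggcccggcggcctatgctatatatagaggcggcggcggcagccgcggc
The motifs were TGANTCA (AP-1), CGGAAG (ETS), GGGCGG (the GC box), GCCNNNGGC (TFAP2), GGAATG (TEAD), TATAAA (the TATA box) and TGACGTCA (CRE). AREG and EREG each hold TATAAA, 29 to 24 and 32 to 27 bases before the start, and 11.1% of the 27305 RefSeq promoters of this length hold it. AREG also holds TGACGTCA, found in 1.77% of promoters, and EREG 1 match to GGAATG, found in 11.9%. HBEGF has 5 matches to GGGCGG, of which 2 share a base, and AREG and ERRFI1 have 1 each, where 42.3% of promoters have at least 1. HBEGF has 1 match to CGGAAG, against 16.8% of promoters. None of these 4 windows held TGANTCA or GCCNNNGGC, found in 6.6% and 19.7% of promoters. The 4 windows are 65.2%, 58.0%, 76.4% and 75.2% G or C in the order printed, against a median of 58.0% over all promoters, and a match here is a description of the letters.

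EREG and AREG are neighbours on chromosome 4 on the same strand (EREG 74365143 to 74388751, AREG 74445134 to 74455009, GRCh38), with 56382 bases between them. Their per-length levels were nearly equal in each library. AREG stood at 0.937 times EREG in the unprefixed control, 0.827 times in the SP-prefixed control, and 0.934 and 0.950 times in the unprefixed and SP-prefixed libraries labelled KD. EREG was also among the 5 genes most like AREG out of 11294 candidates with a mean of at least 5 CPM, by the root mean square difference in centred log2 CPM over the 4 libraries. The closest were MDGA1 (0.07), JUNB (0.07), EREG (0.08) and PTHLH (0.09). JUNB, a subunit of AP-1, stood at 55.8 and 109.7 CPM in control and at 62.2 and 45.4 CPM in labelled-KD libraries. The 5 genes most like ERRFI1 were CXCL2 (0.05), VEGFA (0.09), LCA5 (0.09), PIM1 (0.10) and PNRC1 (0.10). VEGFA, the angiogenic growth factor, stood at 131 and 436 CPM in control and at 143 and 134 CPM in labelled-KD libraries. Those most like GRB7 were IL20RB (0.20), SCD (0.21), NGFR (0.23), SLC1A4 (0.24) and TMPRSS3 (0.25), so its pattern had no match as close as the other 2 genes had.

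TGFA was the most abundant ligand per length and the one member above both controls in both libraries labelled KD. It encodes transforming growth factor alpha, which is shed from the membrane to bind EGFR. TGFA stood at 328 and 325 CPM in control and at 392 and 361 CPM in labelled-KD libraries, which is a log2 difference of 0.21 ± 0.12 (SE, 2 libraries in each group; edgeR, adjusted p = 0.57). Per length TGFA made up 55.5% of the summed level of the 4 ligands in the unprefixed control, 53.7% and 60.4% in the unprefixed and SP-prefixed libraries labelled KD, and 32.7% in the SP-prefixed control. In that control HBEGF made up 25.0%, against 8.88% to 12.3% in the other libraries. The summed ligand level was 200.2 CPM per kb there and 119 to 147 CPM per kb in the others.

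**Figure D4:**
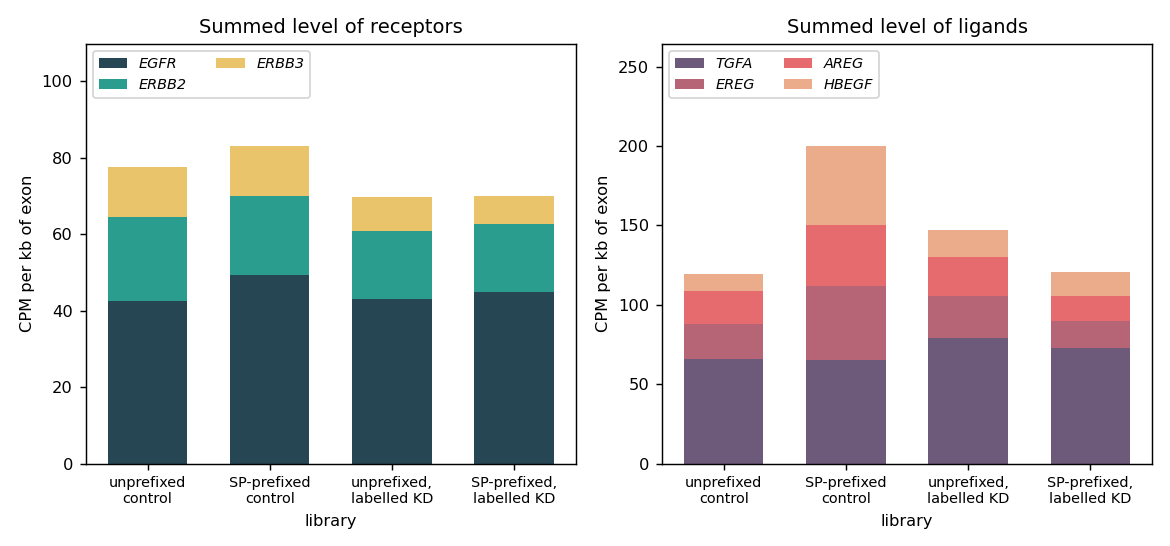
Stacked per-length levels (CPM per kb of exon) of the 3 receptors (left) and of the 4 ligands (right) in each library. The receptor sum runs from 69.6 to 83.1 CPM per kb, while the ligand sum is 200.2 CPM per kb in the SP-prefixed control and at most 147 CPM per kb in the other 3.

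Other genes of the pathway were read as 7 lists, also chosen with earlier results of these data known. Of 71 genes on them, 66 passed the filter and 0 passed edgeR, with the group alone or with the prefix term (lowest adjusted p = 0.233 and 0.0949), or DESeq2. At an unadjusted p under 0.05 there were 10 (7 lower, 3 higher), or 15.2%, against 11.2% of all genes tested (7.21% lower and 4.03% higher). Of the other receptors and ligands, 5 of 8 passed the filter, 3 of them negative, around a median of -0.65. NRG1, a neuregulin that binds ERBB3, was the abundant one with 93.4 and 178 CPM in control and 146 and 146 CPM in labelled-KD libraries (log2 fold change 0.11 ± 0.27). BTC, NRG4, EGF and ERBB4 stood at no more than 1.76 CPM, and NRG3 had 0 counts in all libraries.

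The adaptor list had 10 of 10 measured, 7 of them negative, with a median of -0.18. PTPN11, SHC1 and CRKL, which are recruited to active receptors or their scaffolds, had log2 fold changes of 0.17 ± 0.12, -0.08 ± 0.13 and 0.04 ± 0.13. GRB10, a paralog of GRB7 named after its values were seen, stood at 10.4 and 31.8 CPM in control and at 16.8 and 15.6 CPM in labelled-KD libraries, with log2 fold changes by pair of 0.69 (unprefixed) and -1.03 (SP-prefixed), and GRB14 stood at no more than 1.30 CPM. Of 12 genes of receptor turnover and inhibition, 9 were positive, with a median of 0.07. The phosphatase gene PTPN1 had 0.17 ± 0.12, SOCS4 0.10 ± 0.12 and the ubiquitin ligase gene CBL 0.17 ± 0.22. Of 6 measured genes of ligand release, 4 were negative, with a median of -0.24. The metalloproteinases ADAM9, ADAM15 and ADAM10 had 0.17 ± 0.15, 0.03 ± 0.15 and -0.17 ± 0.15. ADAM17, the main protease that sheds TGFA and AREG, named after its values were seen, peaked in the SP-prefixed control at 133 CPM, against 66.2 to 69.6 CPM elsewhere.

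Log2 fold changes in the kinase cascades below the receptors were small. The RAS and ERK cascade had 10 of 10 measured, 5 in each direction, with a median of 0.00, and NRAS and MAP2K2 had 0.14 ± 0.12 and -0.03 ± 0.12. MAPK3, which encodes ERK1 and was named after its values were seen, stood at 72.4 and 82.0 CPM in control and at 52.6 and 51.8 CPM in labelled-KD libraries (log2 fold change -0.56 ± 0.13, SE, n = 2 per group; edgeR, adjusted p = 0.233; with the prefix term, 0.0949). The PI3K and AKT arm had 9 measured genes, 4 of them negative, and a median of 0.00. AKT1, PLCG1 and PIK3CB had 0.13 ± 0.13, 0.28 ± 0.14 and -0.19 ± 0.14.

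The last list held 14 transcripts that respond to ERK, all measured. The SP-prefixed control was the highest library for 11 of the 14 (78.6%, against 31.1% of all genes tested). The unprefixed pair was higher and the SP-prefixed pair lower in the library labelled KD for 8 (57.1%, against 19.2%), and these differences from all genes were not tested. Their median by pair was 0.08 (unprefixed) and -0.62 (SP-prefixed), and 11 of 14 were negative with the group alone. EPHA2, a receptor tyrosine kinase, stood at 424 and 618 CPM in control and at 435 and 428 CPM in labelled-KD libraries. IER3 had 328 and 572 CPM against 345 and 318 CPM. DUSP4, a phosphatase that inactivates ERK, had 337 and 451 CPM against 300.5 and 296 CPM (log2 fold change -0.40 ± 0.16). SPRY2, a feedback inhibitor of receptor tyrosine kinase signalling named after its values were seen, was higher in the labelled-KD library of both pairs. It had 35.0 and 37.9 CPM in control against 48.3 and 50.7 CPM (log2 fold change 0.44 ± 0.13, edgeR adjusted p = 0.322). What part the SP-prefixed control's own state has in these differences was not tested.

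**Figure D5:**
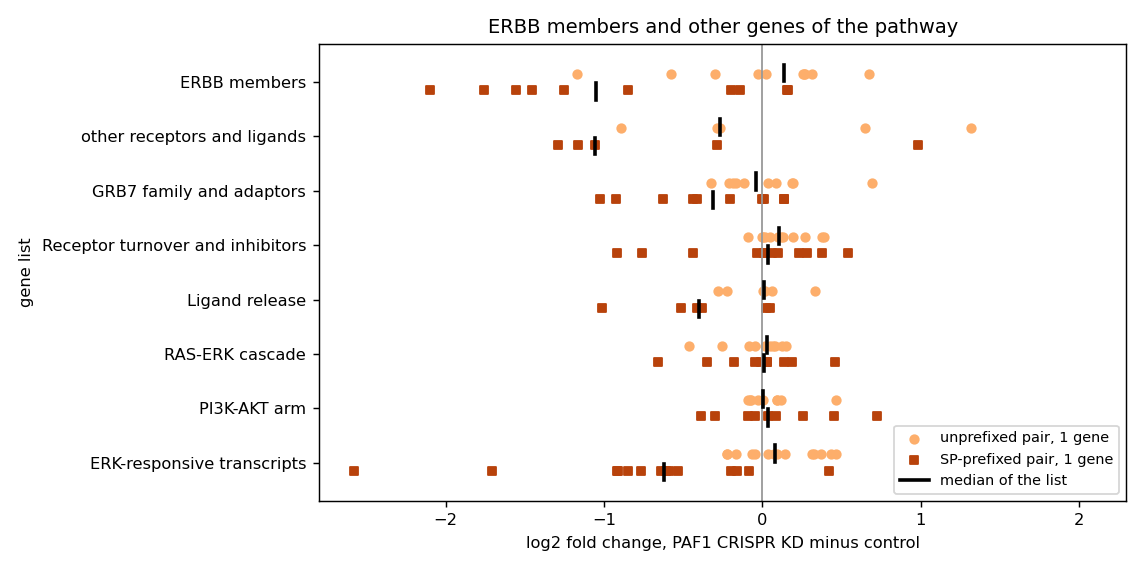
Log2 fold changes (labelled KD minus control) of the 10 ERBB genes and of the measured genes of 7 pathway lists in the unprefixed pair (circles) and the SP-prefixed pair (squares), with the median of each list as a bar. The medians of the 10 genes (0.14 and -1.05) and of the ERK-responsive transcripts (0.08 and -0.62) lie on opposite sides of 0, while those of the RAS-ERK cascade and the PI3K-AKT arm lie close to 0 in both pairs.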

How the data were processed

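RNA-seq counts of 4 SW1990 libraries (2 per group, 2 lanes each) were read from 1 deposited table of raw counts per gene and lane, made by the authors with no normalization. The tools FastQC, HISAT2 and featureCounts and the builds hg19 and GRCh38 are named, without roles, per the submitters' processing notes. The coordinates of 8 of the 10 genes equal those of GENCODE release 29 on GRCh38. Per the labels' protocols, RNA came from a mirVana kit and libraries from a TruSeq RNA kit. The exon length column, also deposited, has another unit, bases.

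Lanes were summed, genes were filtered by filterByExpr (minimum count 10; 16417 genes left), scaled by TMM and tested with edgeR 4.0.16 in R 4.3.3 (quasi-likelihood F test, Benjamini-Hochberg adjustment over all genes, threshold 0.05). Standard errors were derived from the F statistic. The group fit had 2 residual degrees of freedom and the fit with the prefix term 1. DESeq2 1.42.0 (all genes, its own filter), limma-voom (limma 3.58.1), other scalings and filters, single lanes and leaving out each library were alternatives. Log2 values of single pairs used a prior count of 2. The fits were also run on simulated counts with the spread set alike for every gene. That setting cannot show how they behave where the controls differ as here. Python 3.11.15, pandas 2.3.3 and matplotlib 3.10.9 were used for tables and figures, and promoter sequences are RefSeq's (8 of 10 genes matched).

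The 10 genes, the lists and the motifs were chosen with earlier results of these data known. The text names all 10, the 3 most abundant measured genes of each list, tested neighbours of GRB7, and the 5 genes most like GRB7, AREG and ERRFI1; exceptions are stated. Some genes that this rule names are not reported here.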

Additional observations from a re-analysis of the deposited data

Results flagged for a closer look

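For 4 of the 10 genes the groups differed in opposite directions in the 2 pairs of libraries, with counting intervals apart in both pairs. The share of all genes that meet this rule was not computed. Their order of signs, without the rule on intervals, held for 19.2% of all genes tested. The log2 fold change of the SP-prefixed pair minus that of the unprefixed pair was -1.52 for AREG, -1.72 for EREG, -2.43 for HBEGF and -1.87 for ERRFI1. With 1 library for each group and prefix the difference was not tested. The SP-prefixed control was the highest of the 4 libraries for all 4 of these genes, against 31.1% of all genes tested.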

How the results depend on the processing

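No paired analysis was possible because the count columns carry no library number of the titles; the prefix term blocks by the column-name prefix instead, and nothing in the labels says that a shared prefix marks a shared culture or batch. The count of genes past the edgeR group test was 0, and 902 with no filter on low counts, 236 with DESeq2 and 304 with the prefix term. Of the 10 ERBB genes, 0 passed, and 5 with no filter, 2 with DESeq2 and 2 with the prefix term. GRB7's log2 fold change of -1.78 was past the threshold at -1.76, -1.77 and -1.66 in the same settings. Leaving out each library gave 0 to 1434 genes, 0 to 6 of the 10, and -2.29 to -0.95 for GRB7. The 1434 genes and 6 of the 10 were found without the unprefixed control, and 291 genes and 2 of the 10 without the SP-prefixed control, each with a lone control assumed to vary like the other group. Without the SP-prefixed control the sign turned for EGFR (-0.15 to 0.053 over the libraries left out), HBEGF (-1.65 to 0.58) and ERRFI1 (-1.45 to 0.23). The GRB7 to ERBB2 log2 ratio difference of -1.39 ranged from -2.12 to -0.67 over the libraries left out.

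With the prefix term, 304 genes passed, and 592 with upper quartile scaling, 629 with TMM factors from all genes before the filter, 1115 with no filter and 627 from lane L002 alone. Of the 10 genes, 2 passed, but 4 with no filter, where EREG and ERRFI1 were added. With RLE scaling, 1 of the 10 and 235 of all genes passed. With a filter of 1 CPM in 2 libraries, 1 of the 10 and 228 of all genes passed. GRB7 passed in all 10 of these settings, and ERBB3 in all except RLE scaling and the 1 CPM filter. The causes were not tested. Settings combined with the prefix term were chosen after seeing the data.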
